A study of Mus musculus with 12 samples.

Results

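Adherent neural stem (ANS) cells are neural stem cells grown as a monolayer, here taken from mouse embryos at E14.5, and they were compared at the 2 ends of a differentiation protocol. T0 is full proliferation, and T3 is the overt differentiation endpoint of a protocol meant to give GABAergic neurons, annotated in the labels as GAD positive. The comparison used 5 of the 12 RNA-seq libraries of the series, chosen by their labels: 3 T0 cultures (replicates 1, 2 and 3) and 2 T3 cultures (replicates 1 and 4). The genes described are those for which both T3 libraries lay apart from all 3 T0 libraries, grouped by function. The question was which messages separate proliferating cells from cells that have finished the protocol.

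T0 cells were in Euromed-N with N2 at 1%, EGF at 20 ng/ml and FGF2 at 20 ng/ml. T3 cells had gone through a first differentiation medium (D1), had been replated on laminin and were then in medium B, which mixes DMEM/F12 with Neurobasal and holds N2 at 0.5%, B27 at 1%, FGF2 at 10 ng/ml and BDNF at 20 ng/ml, without EGF. The labels place T3 at 10 days after the change to medium B. Whether those days were counted from that change, as the labels have it, or from the T2 stage, as the study's text reads, was not settled here. T2, with 4 libraries, is the stage after 2 days in medium B and was used only to say whether a T3 level also differed from it. The library names mark every culture as wt, and no gene was manipulated. Medium, growth factors, substrate, replating and time in culture changed together between T0 and T3 and cannot be told apart. The cultures are described as independent replicas, but neither labels nor methods say whether they came from separate embryos or derivations, so the p-values measure the spread between these cultures, which may be technical.

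Neural stem cells divide while EGF and FGF signalling holds them in cycle. When the factors are withdrawn they can leave the cycle and become neurons, astrocytes or oligodendrocytes. DNA replication genes are switched by E2F factors in late G1, whereas many mitotic genes are controlled through CHR and CCAAT elements of their promoters. Young neurons first build a doublecortin-rich cytoskeleton and then receptors, channels and release machinery. GABAergic neurons make their transmitter with the glutamate decarboxylases Gad1 and Gad2.

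The libraries held 13426197, 14568011 and 15215931 gene counts at T0 and 11776141 and 8910724 at T3. Where a T0 group held no more than 3 counts in any library, counts are printed in place of CPM with the ratio of pooled CPM and its exact 95% interval, which covers counting error only, or with a lower bound that sets each empty T0 library to 3 counts. All values below are otherwise CPM, counts scaled to a library's total after TMM normalisation, given for T0 replicates 1, 2 and 3 and T3 replicates 1 and 4 in that order, and SE is its standard error where a log2 fold change is given. T0 replicate 3 stood apart. The root mean square log2 distance between T0 replicates 1 and 2 was 0.232, whereas replicate 3 lay 0.864 and 0.856 from them, and the 2 T3 libraries lay 0.562 apart. T3 replicate 4 was 0.842 from T0 replicate 1, so T0 replicate 1 was about as far from T0 replicate 3 as from that T3 library. Reads outside genes made up 13.3% of the unique alignments of T0 replicate 3 against 19.6% and 19.9% in the other T0 libraries. Why T0 replicate 3 stood apart was not tested, and counts are therefore given with and without it. The T3 libraries also differed from each other in one direction: replicate 1 had the lower mitotic and the higher neuronal levels for most genes named below.

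The exons of 43 of the genes named with values overlap those of another gene in the annotation, and their reads may not be theirs alone. Those that passed the test were 5730590G19Rik, Cacna2d2, Ckmt1, Cntd1, Dll4, Ephb1, Fancd2, Fn1, Gnal, Gnao1, Hmga2, Kcnd3, Orc1, Pcsk2, Plxna1, Plxna4, Pole, Prkar1b, Prkca, Rad54l, Ryr3, Slc2a1, Slc8a1, Synj2, Syp, Tap1, Tm7sf2, Tnc, Tpi1, Unc5a and Wdr62. Those that did not were Abat, Ccnd1, Cdc20, Cdc45, Dlx1, Egr1, Gpr17, Grin1, Hes5, Neurod1, Notch1 and Slc1a2.

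Of 12721 genes tested among 22609 in the tables, 179 were lower and 421 were higher at T3 (edgeR quasi-likelihood test, adjusted p under 0.05), that is 1.41% and 3.31% of the genes tested. In every one of them the groups did not overlap. Groups that do not overlap were much more frequent than calls, with both T3 libraries below all T0 libraries for 3161 genes (24.8%) and above them for 3227 genes (25.4%). The numbers of list members above or below T0 given later are to be read against these shares. The median log2 fold change was -0.01 over all genes tested, -1.47 over the genes that fell and 3.08 over those that rose, or 2.78 with the rises from a T0 level at or under 3 counts set to their lower bound, so the falls were smaller than the rises. Bulk RNA cannot tell fewer cells of a type from less RNA per cell, which holds for every level below.

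Without T0 replicate 3, 1067 genes were lower (8.49% of 12573 tested) and 1250 higher (9.94%), and these included all 179 falls and 418 of the 421 rises. Leaving out T0 replicate 1 left 1 lower and 14 higher genes, and leaving out T0 replicate 2 left 2 and 13. With a single T3 library the calls went to 0 and 0 without T3 replicate 1 and to 0 and 1 without T3 replicate 4, while 1604 and 2756 genes there had an unadjusted edgeR p under 0.05 in either direction. Few calls were thus left without T0 replicate 1 or 2 or with a single T3 library. These fits hold fewer libraries, and why the calls were lost was not tested. Against T2, 87 genes were lower at T3 (0.691% of 12599 tested) and 63 were higher (0.5%). That comparison shares its T3 libraries with the one against T0. Leaving out T2 replicates 1, 2, 3 or 4 left 12, 7, 12 and 0 lower genes and 3, 5, 3 and 1 higher genes, and the counts were 515 lower and 832 higher without T3 replicate 1 and 51 lower and 98 higher without T3 replicate 4.

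**Figure D1:**
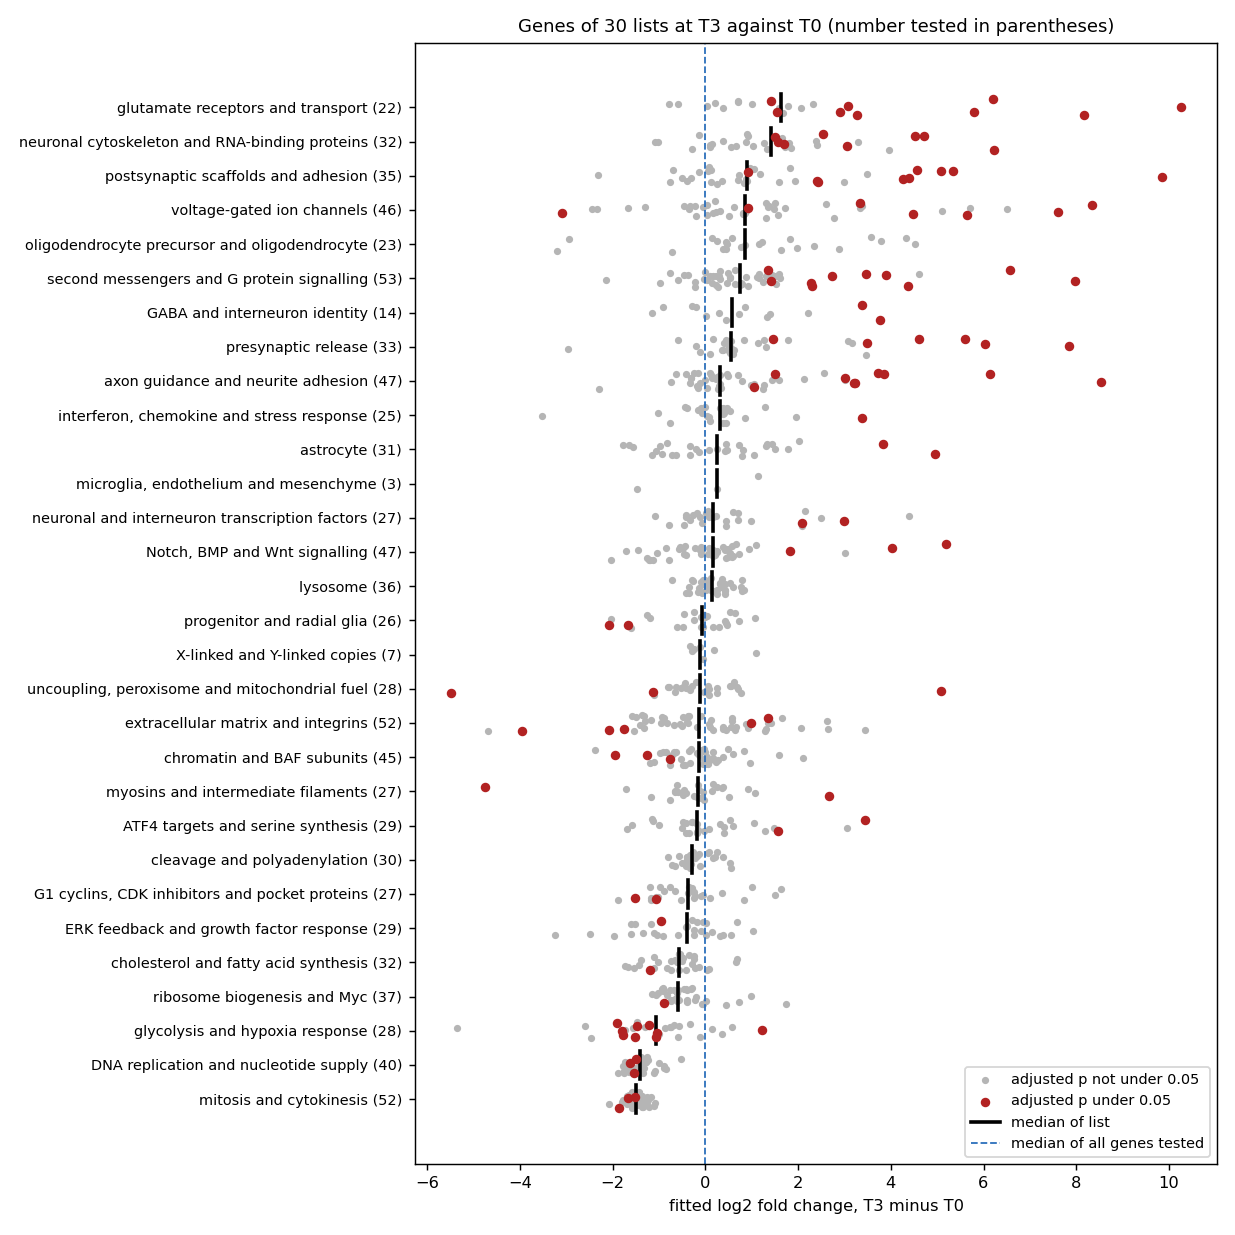
Fitted log2 fold change at T3 against T0 (horizontal axis, T3 minus T0) for the tested members of 30 gene lists, 1 point per gene, with the list median as a black bar and the median of all 12721 genes as a dashed line. Red points passed the test. Members found in the counts only under an older gene symbol enter the medians but are not drawn. Mitosis and DNA replication genes lie wholly left of 0 with medians of -1.50 and -1.42, and the lists with the highest medians hold glutamate receptor genes (1.64) and neuronal cytoskeleton genes (1.42).

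Genes of cell division were lower at T3, and none of the tested members of the 2 lists overlapped between groups. All 52 mitosis genes and all 40 DNA replication genes had both T3 libraries below all T0 libraries, against the background of 24.8%. Their median log2 fold changes were -1.50 and -1.42, and -1.23 and -1.10 without T0 replicate 3. The adjusted test was passed by 3 and 3 of them. The T0 libraries were spread among themselves, and the summed mitosis level was 6799.5, 7004 and 11129 CPM at T0 and 1999 and 4037 CPM at T3. Without T0 replicate 3 the test was passed by 14 and 13 genes, and DESeq2 on all 5 libraries called 46 and 36.

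The 3 mitosis genes that passed the test were Top2a, Cenpe and Casc5. Top2a, the topoisomerase that untangles sister chromatids, fell from 409, 431 and 541 to 121 and 199 CPM (log2 fold change -1.52 ± 0.28 SE, adjusted p = 0.0427). Cenpe, a kinetochore motor, fell from 125, 120.3 and 173 to 34.3 and 53.1 CPM (log2 fold change -1.68 ± 0.28 SE, adjusted p = 0.0354). Casc5, the kinetochore scaffold now named Knl1, fell from 60.7, 66.1 and 87.4 to 15.7 and 23.7 CPM (log2 fold change -1.86 ± 0.28 SE, adjusted p = 0.0299). In each of them T0 replicate 3 was the highest library, and T3 replicate 4 kept a higher level than T3 replicate 1. Mki67, the gene of the proliferation antigen Ki-67, measured 567, 599 and 846 CPM at T0 and 196 and 313 CPM at T3 and missed the threshold (adjusted p = 0.0578) while its groups did not overlap. The checkpoint kinase gene Bub1b measured 137, 142 and 242 CPM at T0 and 25.8 and 56.4 CPM at T3 (log2 fold change -2.08 ± 0.44 SE, adjusted p = 0.0572). The polo-like kinase gene Plk1 measured 87.3, 80.8 and 219 CPM at T0 and 26.6 and 74.3 CPM at T3 (log2 fold change -1.36 ± 0.63 SE, adjusted p = 0.235).

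RefSeq promoter windows from 250 bases before to 50 bases after the start (GRCm38.p6) matched 44 of the 52 mitosis genes by symbol, with 46 windows. The CHR letters TTTGAA, read on both strands, were in 33 of them (71.7%), against 17.9% of all 32851 windows and 10.8% of the windows of DNA replication genes. CCAAT was in 67.4% of mitosis windows, 59.5% of replication windows and 37.4% of all. It was also in 70.4% of the 27 windows of cholesterol and fatty acid synthesis genes, so it was not particular to cell division genes. The window of Cenpe, which passed the test, held CCAAT but not the CHR letters. The stretches below show the CHR letters in capitals for some of the mitosis genes whose values are given here. Each is written 5′ to 3′ on the strand of its gene.
Top2a (chr11:99024351-99024380, gene on the minus strand): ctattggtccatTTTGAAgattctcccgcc
Casc5 (Knl1) (chr2:119047138-119047167, gene on the plus strand): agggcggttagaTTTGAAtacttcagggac
Cdc20 (chr4:118437344-118437373, gene on the minus strand): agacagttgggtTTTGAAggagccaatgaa
Spc25 (chr2:69206172-69206201, gene on the minus strand): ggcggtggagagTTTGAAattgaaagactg
Plk1 (chr7:122159453-122159482, gene on the plus strand): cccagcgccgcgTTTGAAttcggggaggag
A letter match is a description of the window and not a measured binding site.

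A pair of mitosis genes was higher at T3 than at T2. Cdc20, the activator of the anaphase-promoting complex, measured 106, 95.1 and 205 CPM at T0 and 27.3 and 70.5 CPM at T3, and lay above the 4 T2 libraries at 11.4 to 17.7 CPM (log2 difference from T2 1.79, adjusted p = 0.0492). Spc25, a subunit of the Ndc80 kinetochore complex, measured 48.96, 54.7 and 87.6 CPM at T0 and 18.96 and 40.01 CPM at T3 against 9.22 to 12.4 CPM at T2 (log2 difference from T2 1.50, adjusted p = 0.0492). T2 levels were scaled over all 12 libraries. Over the whole mitosis list the median log2 difference of T3 from T2 was 1.54, with 2 of 52 genes passing that test, both upward.

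Among DNA replication genes the test was passed by Pola1, Pole and Orc1. Pola1, the catalytic subunit of the polymerase that primes synthesis, fell from 85.8, 92.2 and 124 to 29.1 and 42.3 CPM (log2 fold change -1.50 ± 0.26 SE, adjusted p = 0.0399). Pole, the leading-strand polymerase, fell from 109, 103 and 122 to 30.7 and 45.3 CPM (log2 fold change -1.55 ± 0.22 SE, adjusted p = 0.027). Orc1, a subunit of the origin recognition complex, fell from 15.3, 20.6 and 26.6 to 6.10 and 7.44 CPM (log2 fold change -1.62 ± 0.32 SE, adjusted p = 0.0491). In all 3 genes T3 replicate 4 was the higher T3 culture, and it lay well below the lowest T0 culture. The helicase gene Mcm6 measured 242, 239 and 392 CPM at T0 and 50.4 and 119.8 CPM at T3 (log2 fold change -1.78 ± 0.44 SE, adjusted p = 0.076). The maintenance methylation factor gene Uhrf1 measured 159, 152 and 262 CPM at T0 and 32.6 and 80.1 CPM at T3 (log2 fold change -1.76 ± 0.46 SE, adjusted p = 0.083). The clamp gene Pcna measured 96.3, 105 and 170.3 CPM at T0 and 33.6 and 55.4 CPM at T3 and passed the test without T0 replicate 3 (adjusted p = 0.0364). Rrm2, the S-phase subunit of ribonucleotide reductase, measured 160.1, 142 and 315 CPM at T0 and 42.003 and 118 CPM at T3 and was above T2 at 16.4 to 26.9 CPM (log2 difference from T2 1.86, adjusted p = 0.0497). The same held for the origin licensing gene Cdt1 (log2 difference from T2 1.66, adjusted p = 0.0469) and the helicase activator gene Cdc45 (log2 difference from T2 1.75, adjusted p = 0.0497).

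The E2F letters TTCCCGC, read on both strands, were in 16 of the 37 replication windows (43.2%), which matched 32 of 40 genes, against 4.35% of mitosis windows and 4.6% of all windows. TTGGCGC was in 18.9% of replication windows, 17.4% of mitosis windows and 2.45% of all, and its reverse complement can share bases with CCAAT. Of the replication genes that passed the test, Orc1 had neither E2F word in its window, and no stretch was found for Pole. The E2F letters are in capitals below for some of the replication genes described above.
Pola1 (chrX:93632306-93632335, gene on the minus strand): cctcgccgaggTTCCCGCttttcgctcagg
Mcm6 (chr1:128359796-128359825, gene on the minus strand): ggcgtatgcttTTGGCGCgaaaagtgcgtg
Uhrf1 (chr17:56303278-56303307, gene on the plus strand): tgctttctcgcTTCCCGCcacagcgccagc
No claim about the factors follows from these letters.

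**Figure D2:**
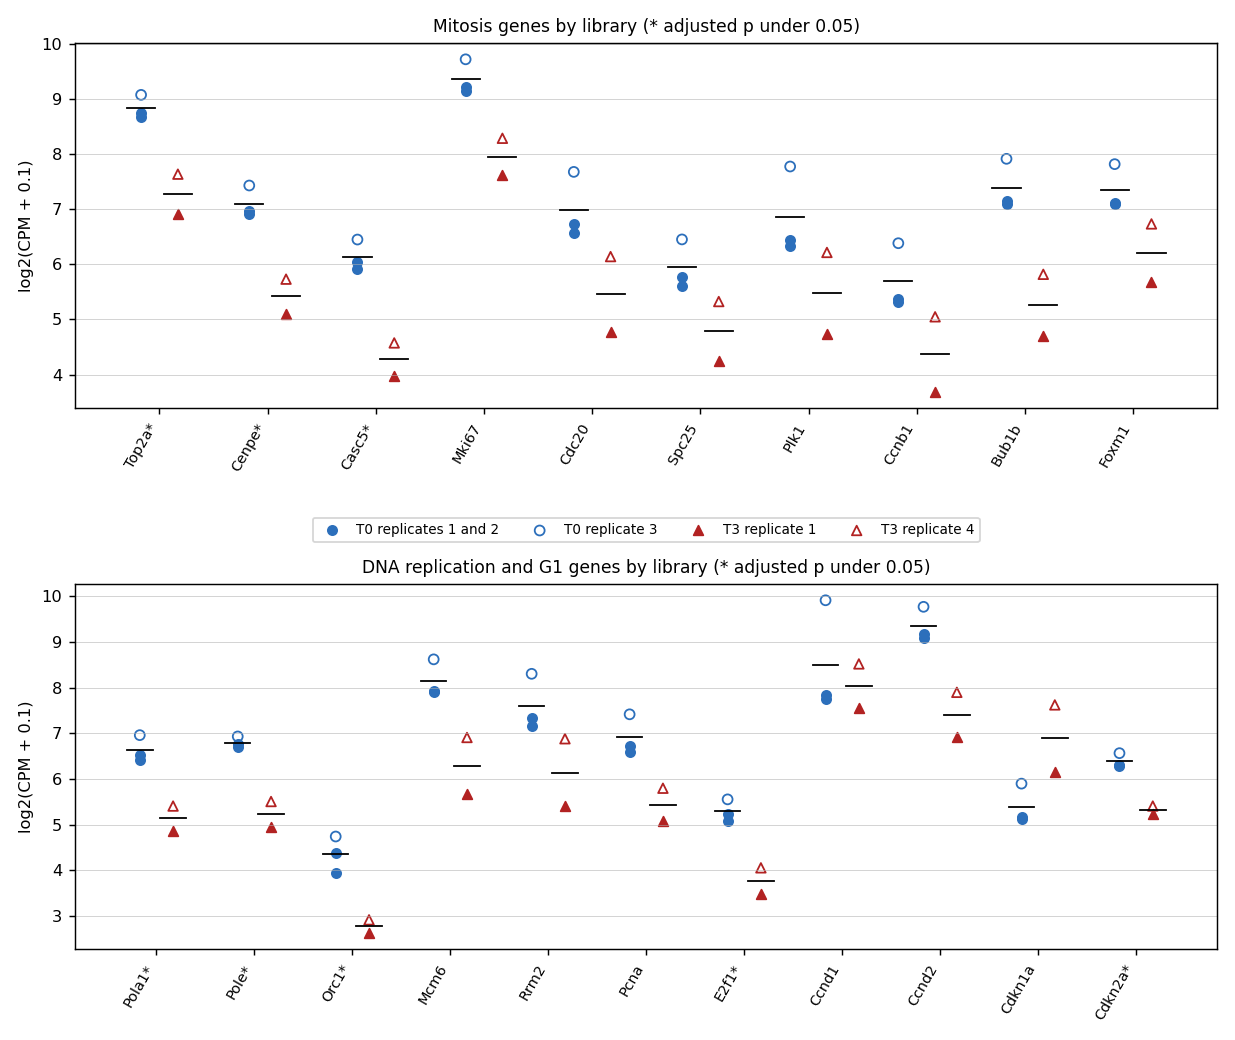
Level by library, as log2(CPM + 0.1), of mitosis genes (top) and of DNA replication and G1 genes (bottom). Circles are T0 libraries, with replicate 3 open, triangles are T3 libraries, with replicate 4 open, bars are group means, and an asterisk marks an adjusted p under 0.05. Circles lie above triangles for every mitosis and replication gene drawn, whereas Ccnd1 overlaps and Cdkn1a is the reverse.

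Genes of the G1 phase were more mixed. Of 27 tested genes for G1 cyclins, CDK inhibitors and pocket proteins, 14 had both T3 libraries below T0 and 3 above, and 2 passed the test, both lower (median -0.37, or -0.35 with 5 lower and 3 higher calls without T0 replicate 3). E2f1, a transcription factor that activates replication genes, fell from 33.5, 37.6 and 46.8 to 11.02 and 16.5 CPM (log2 fold change -1.52 ± 0.27 SE, adjusted p = 0.0411). Cdkn2a, the locus of the p16 and p19 inhibitors of growth, fell from 79.4, 78.1 and 94.4 to 37.5 and 42.3 CPM (log2 fold change -1.07 ± 0.17 SE, adjusted p = 0.0334). The CDK inhibitor gene Cdkn1a (p21) measured 35.6, 34.7 and 59.4 CPM at T0 and 71.1 and 196 CPM at T3 with no overlap and did not pass (adjusted p = 0.0975, and 0.0498 without T0 replicate 3). The cyclin gene Ccnd2 measured 540.0, 578 and 871 CPM at T0 and 120.0 and 238 CPM at T3 (adjusted p = 0.0527, and 0.0329 without T0 replicate 3). Ccnd1, the cyclin gene most tied to mitogen signalling, overlapped between T0 and T3 at 229, 216 and 961 CPM at T0 and 188 and 366 CPM at T3 and was above T2 (log2 difference from T2 1.48, adjusted p = 0.0387).

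Among 29 genes of ERK feedback and growth factor response, 10 lay below T0 in both T3 libraries, 5 above, and 1 passed the test (median -0.39, or -0.34 with 6 lower and 1 higher calls without T0 replicate 3). That gene was the FGF receptor gene Fgfr1, which fell from 483, 445 and 368 to 211 and 236 CPM (log2 fold change -0.95 ± 0.19 SE, adjusted p = 0.0499). Fgfr3 measured 779.6, 680.1 and 227 CPM at T0 and 147 and 139 CPM at T3 and passed without T0 replicate 3 (adjusted p = 0.00655). Egfr, the receptor for the factor removed from the medium, measured 1060.3, 1022 and 828 CPM at T0 and 1354 and 1158 CPM at T3 (log2 fold change 0.37 ± 0.19 SE, adjusted p = 0.278). The EGF family ligand gene Areg measured 44.1, 38.5 and 60.5 CPM at T0 and 0.668 and 9.60 CPM at T3 (log2 fold change -3.25 ± 0.94 SE, adjusted p = 0.0996). The immediate early gene Egr1 measured 307, 127 and 383 CPM at T0 and 45.2 and 51.2 CPM at T3 (log2 fold change -2.50 ± 0.49 SE, adjusted p = 0.0501). Areg varied widely between the T3 libraries and Egr1 between the T0 libraries. The ERK phosphatase gene Dusp6 measured 159, 129 and 516 CPM at T0 and 58.3 and 128 CPM at T3 (log2 fold change -1.52 ± 0.71 SE, adjusted p = 0.241), while the feedback genes Spry2 and Spred1 overlapped between the groups.

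Progenitor markers overlapped between T0 and T3 for the most part. Of 26 tested, 16 overlapped between T0 and T3, 7 lay below and 3 above, and 2 passed the test, both lower (median -0.07, or -0.17 with 7 lower and 3 higher calls without T0 replicate 3). Nes, the intermediate filament gene of neural progenitors, measured 844, 957 and 1786 CPM at T0 and 1016 and 1308 CPM at T3, and Sox2, the stem cell transcription factor gene, 427, 425 and 183 CPM at T0 and 381 and 266 CPM at T3. Hmga2, a chromatin protein of fetal stem cells, fell from 64.8, 62.3 and 69.7 to 18.3 and 22.97 CPM (log2 fold change -1.67 ± 0.19 SE, adjusted p = 0.0185). Tnc, the matrix protein tenascin-C, fell from 551, 524 and 643 to 82.6 and 190.1 CPM (log2 fold change -2.07 ± 0.38 SE, adjusted p = 0.0439). The Notch effector gene Hes5 measured 59.8, 58.2 and 26.7 CPM at T0 and 10.4 and 13.2 CPM at T3 (adjusted p = 0.0527, and 0.00693 without T0 replicate 3). Prom1, another stem cell marker, had 1, 2 and 0 counts at T0 and 1 and 2 counts at T3.

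In the list of neuronal cytoskeleton and neuronal RNA-binding protein genes every call was a rise. Of 32 tested, 22 lay above T0 in both T3 libraries, 2 below, and 8 passed the test, all higher (median 1.42, or 1.41 with 1 lower and 16 higher calls without T0 replicate 3). Dcx, the microtubule protein of migrating young neurons, rose from 8.12, 6.69 and 1.74 to 549 and 271 CPM (log2 fold change 6.22 ± 0.68 SE, adjusted p = 0.018). Stmn4, a microtubule regulator, rose from 0.298, 0.276 and 0 to 6.51 and 3.99 CPM (log2 fold change 4.73 ± 0.80 SE, adjusted p = 0.0369). The collapsin response mediator gene Dpysl3 rose from 44.8, 45.7 and 30.5 to 335 and 135 CPM (log2 fold change 2.54 ± 0.41 SE, adjusted p = 0.0328). Both T3 libraries were far above every T0 library in these genes, with T3 replicate 1 the higher. The other genes that passed were Mtap1b and Kif5c for microtubules and transport, Crmp1, and the RNA-binding protein genes Rbfox3 and Celf5, of which Crmp1 went from 70.6, 69.96 and 63.8 to 236 and 170.2 CPM (log2 fold change 1.57 ± 0.18 SE, adjusted p = 0.0203).

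Rbfox3, the gene of the mature neuronal antigen NeuN, rose from near 0 but remained low. It had 1, 0 and 1 counts at T0 and 12 and 15 counts at T3 (26.9 times the pooled T0 level, interval 6.76 to 233). Tubb3, the neuronal beta-tubulin gene, measured 32.1, 33.3 and 10.6 CPM at T0 and 176 and 89.4 CPM at T3 (adjusted p = 0.0629, and 0.0232 without T0 replicate 3). Mapt, the gene of tau, measured 20.2, 18.8 and 2.08 CPM at T0 and 306 and 119.6 CPM at T3 (adjusted p = 0.0639, and 0.0166 without it). In both, T0 replicate 3 was well below T0 replicates 1 and 2. Stmn2, a marker of growing axons, had 0, 0 and 0 counts at T0 and 0 and 1 counts at T3, and the gene was not tested.

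Neuronal and interneuron transcription factor genes gave 8 of 27 above T0 (29.6%) and 3 below (11.1%), against 25.4% and 24.8% of all genes tested. The test was passed by 2 of the 27 (median 0.16, or -0.05 with 1 lower and 8 higher calls without T0 replicate 3). One of them, Bcl11b (Ctip2), rose from 4.62, 4.89 and 3.68 to 20.1 and 17.3 CPM (log2 fold change 2.09 ± 0.25 SE, adjusted p = 0.0203). Of the proneural genes, Neurod1 measured 1.42, 1.10 and 0.417 CPM at T0 and 4.68 and 6.47 CPM at T3. Neurog2 measured 0.447, 0.276 and 0 CPM at T0 and 7.26 and 3.02 CPM at T3. Neither passed against T0, and Neurod1 was above T2 (log2 difference from T2 1.55, adjusted p = 0.0492). Of the forebrain interneuron genes, Dlx1 measured 3.58, 3.03 and 3.40 CPM at T0 and 1.84 and 2.05 CPM at T3. Dlx2 had 2, 4 and 1 counts at T0 and 1 and 0 counts at T3. Dlx5 had none in any of the 5 libraries. Dlx2 and Dlx5 were therefore at or near 0 at both ends.

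The GABA list was represented at T3 by some of its members. Of 32 genes listed, 14 had enough counts to be tested, 6 lay above T0, 1 below, and 2 passed, both higher (median 0.58, or 0.91 with 0 lower and 4 higher calls without T0 replicate 3). Gad1, which makes GABA from glutamate, rose from 4.02, 2.76 and 1.18 to 48.5 and 23.9 CPM (log2 fold change 3.77 ± 0.55 SE, adjusted p = 0.0283), a 13.7-fold difference of the fitted means. Abat, the gene of the GABA-degrading transaminase, measured 135, 127 and 15.1 CPM at T0 and 527 and 328 CPM at T3 (adjusted p = 0.162, and 0.0175 without T0 replicate 3).

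Several other genes that mark a GABAergic neuron were at or near 0. Gad2 had 0, 0 and 0 counts at T0 and 0 and 1 counts at T3, and Slc32a1, the vesicular GABA transporter, 0, 0 and 0 counts at T0 and 1 and 0 counts at T3. Of the interneuron peptide genes, Sst and Npy had no counts in any of the 5 libraries. At these depths 3 counts correspond to 0.324 CPM in T3 replicate 4 and to less in the other libraries, so levels under that were not detectable in every library.

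**Figure D3:**
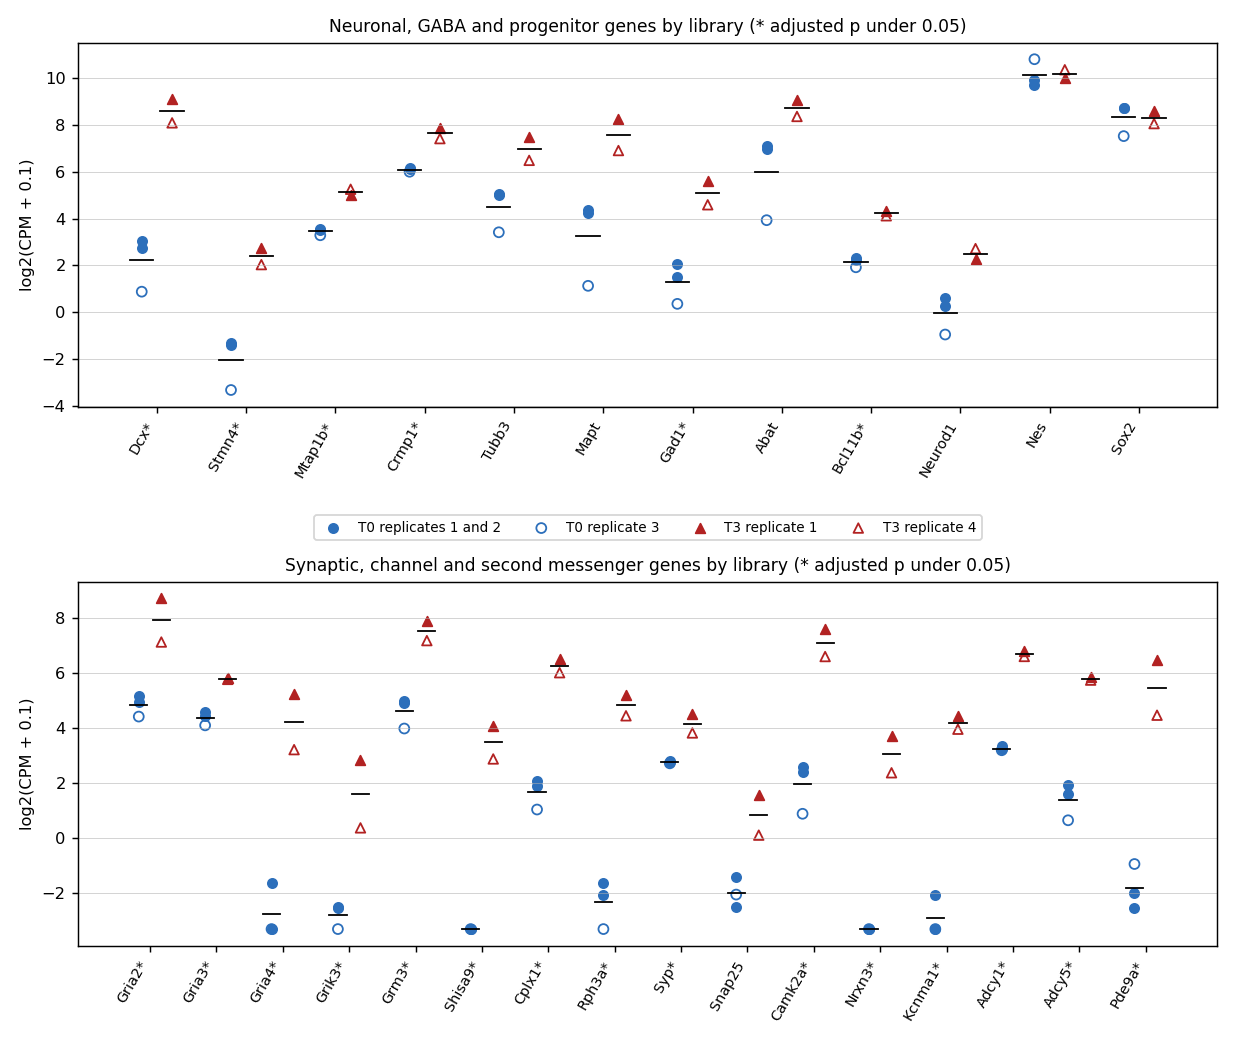
Level by library, as log2(CPM + 0.1), of neuronal, GABA and progenitor genes (top) and of synaptic, channel and second messenger genes (bottom), with symbols as circles for T0 (replicate 3 open), triangles for T3 (replicate 4 open) and bars for group means. An asterisk marks an adjusted p under 0.05. Triangles lie above circles for Dcx, Gad1, Gria2 and Camk2a, T3 replicate 1 is mostly the higher T3 library, and Nes and Sox2 overlap.

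Glutamate receptor genes had the highest list median of all. Of 22 tested, 16 lay above T0 and 2 below, and 9 passed, all higher (median 1.64, or 1.45 with 1 lower and 11 higher calls without T0 replicate 3). Among AMPA receptor subunits, Gria2 rose from 35.6, 30.7 and 21.2 to 423 and 140.1 CPM (log2 fold change 3.27 ± 0.49 SE, adjusted p = 0.0298) and Gria3 rose from 21.5, 23.6 and 17.01 to 56.6 and 54.5 CPM (log2 fold change 1.42 ± 0.20 SE, adjusted p = 0.0254). Gria4 had 3, 0 and 0 counts at T0 and 450 and 85 counts at T3, 355 times the pooled T0 level, interval 121 to 1728, and it was still above T2 at 0.185 to 0.637 CPM (log2 difference from T2 5.60, adjusted p = 0.0162). Gria1 had 0, 0 and 0 counts at T0 and 0 and 3 counts at T3, so the subunit series was not uniform.

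Kainate receptor genes followed the same direction. Grik3 had 1, 1 and 0 counts at T0 and 85 and 11 counts at T3 (95.6 times the pooled T0 level, interval 25.8 to 801). Grik4 had 2, 3 and 1 counts at T0 and 159 and 31 counts at T3 (63.1 times the pooled T0 level, interval 28.5 to 174). Grik1 rose from 0.224, 0.482 and 0.278 to 3.42 and 2.26 CPM (log2 fold change 3.08 ± 0.51 SE, adjusted p = 0.0351). T3 replicate 1 was the higher T3 library in all 3. The auxiliary subunit gene Neto1 rose from 24.2, 27.5 and 34.2 to 105 and 62.01 CPM (log2 fold change 1.55 ± 0.28 SE, adjusted p = 0.042). Shisa9, which modulates AMPA receptors, had 0, 0 and 0 counts at T0 and 201 and 67 counts at T3 (at least 56.4-fold higher). The metabotropic receptor gene Grm3 rose from 29.96, 31.5 and 15.7 to 238 and 145 CPM (log2 fold change 2.90 ± 0.37 SE, adjusted p = 0.0209). Of the NMDA receptor genes, Grin1 measured 0.745, 0.551 and 0.208 CPM at T0 and 3.34 and 1.73 CPM at T3 and Grin2b had 0, 0 and 0 counts at T0 and 1 and 1 counts at T3. The other metabotropic gene tested, Grm5, had both T3 libraries below T0 at 136, 136 and 143 CPM at T0 and 60.6 and 98.996 CPM at T3 (adjusted p = 0.105).

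Of 33 genes of presynaptic release, 20 lay above T0, 1 below, and 6 passed, all higher (median 0.55, or 0.64 with 2 lower and 13 higher calls without T0 replicate 3). The vesicle protein gene Syp rose from 6.71, 6.89 and 6.46 to 22.5 and 14.02 CPM (log2 fold change 1.45 ± 0.28 SE, adjusted p = 0.0472). Cplx1, the complexin that clamps fusion, rose from 3.58, 4.07 and 1.94 to 91.4 and 64.5 CPM (log2 fold change 4.61 ± 0.36 SE, adjusted p = 0.0136). The active zone gene Rims1 had 2, 1 and 0 counts at T0 and 99 and 21 counts at T3 (79.7 times the pooled T0 level, interval 26.6 to 392). Pclo, of the same zone, rose from 0.894, 0.62 and 0.278 to 10.1 and 3.45 CPM (log2 fold change 3.50 ± 0.66 SE, adjusted p = 0.0459). The Rab3 effector gene Rph3a had 3, 2 and 0 counts at T0 and 442 and 201 counts at T3 (256 times the pooled T0 level, interval 109 to 792) and was above T2 (log2 difference from T2 1.56, adjusted p = 0.0444). The vesicle GTPase gene Rab3c rose from 0.224, 0.414 and 0.139 to 17.95 and 7.98 CPM (log2 fold change 5.59 ± 0.59 SE, adjusted p = 0.0174) and was likewise above T2 (log2 difference from T2 1.75, adjusted p = 0.0492). In these 6 genes T3 replicate 1 was the higher T3 library. The fusion genes Snap25 and Syt1 stayed low, at 0.0745, 0.276 and 0.139 CPM at T0 and 2.84 and 0.971 CPM at T3 and 0.298, 0 and 0.139 CPM at T0 and 1.25 and 1.29 CPM at T3. Sv2c, another vesicle protein gene, was lower in both T3 libraries, at 77.8, 75.96 and 28.3 CPM at T0 and 10.4 and 4.96 CPM at T3 (adjusted p = 0.0501, and 0.01 without T0 replicate 3).

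On the postsynaptic side, 20 of 35 scaffold and adhesion genes lay above T0, 4 below, and 9 passed, all higher (median 0.89, or 0.94 with 1 lower and 17 higher calls without T0 replicate 3). Camk2a, the calcium/calmodulin kinase of excitatory synapses, rose from 5.14, 5.93 and 1.74 to 194 and 97.1 CPM (log2 fold change 5.09 ± 0.57 SE, adjusted p = 0.0184), while Camk2b overlapped at 216, 206 and 414 CPM at T0 and 131 and 264 CPM at T3. Of the scaffold genes, Shank2 rose from 3.28, 2.55 and 3.26 to 21.5 and 10.9 CPM (log2 fold change 2.42 ± 0.37 SE, adjusted p = 0.0307). Dlgap1 rose from 1.12, 0.896 and 0.208 to 19.6 and 8.95 CPM (log2 fold change 4.26 ± 0.67 SE, adjusted p = 0.0322) and was above T2 (log2 difference from T2 2.13, adjusted p = 0.0364). The neurexin gene Nrxn3 had 0, 0 and 0 counts at T0 and 157 and 47 counts at T3 (at least 42.7-fold higher). The scaffold gene Dlg2 had 1, 1 and 1 counts at T0 and 33 and 9 counts at T3 (27.9 times the pooled T0 level, interval 8.91 to 141). The synaptic adhesion genes Lrrtm3 and Ptprd and the scaffold gene Dlgap4 also rose, Ptprd from 13.1, 12.4 and 10.97 to 72.5 and 55.9 CPM (log2 fold change 2.40 ± 0.20 SE, adjusted p = 0.0136). Dlg4, the gene of PSD-95, was not among them, with 205, 209 and 176 CPM at T0 and 117 and 114 CPM at T3 (adjusted p = 0.0527). Nrgn, neurogranin, measured 9.69, 7.65 and 15.2 CPM at T0 and 1.00 and 3.45 CPM at T3 (adjusted p = 0.0871).

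Voltage-gated ion channel genes gave 25 of 46 above T0 and 6 below (median 0.86, or 0.63 with 4 lower and 16 higher calls without T0 replicate 3), with 6 higher and 1 lower by the test. The T-type calcium channel gene Cacna1g rose from 0.82, 0.827 and 0.625 to 25.8 and 8.41 CPM (log2 fold change 4.48 ± 0.56 SE, adjusted p = 0.0205). The A-type potassium channel gene Kcnd3 rose from 146, 145 and 149.6 to 301 and 253 CPM (log2 fold change 0.92 ± 0.15 SE, adjusted p = 0.0351). Kcnk10, a leak channel gene, rose from 1.04, 0.896 and 0.486 to 11.5 and 4.96 CPM (log2 fold change 3.34 ± 0.53 SE, adjusted p = 0.0328). The calcium-activated channel gene Kcnma1 had 0, 2 and 0 counts at T0 and 255 and 143 counts at T3 (396 times the pooled T0 level, interval 109 to 3285). Of the calcium channel subunit genes, Cacna2d2 had 0, 0 and 0 counts at T0 and 26 and 15 counts at T3. Cacna2d3 had 2, 1 and 1 counts at T0 and 39 and 67 counts at T3 and was the one of these genes with T3 replicate 4 higher. The one fall was in Kcnc4, another potassium channel gene, from 32.9, 30.7 and 44.3 to 4.68 and 3.77 CPM (log2 fold change -3.08 ± 0.28 SE, adjusted p = 0.0136). Of the sodium channel genes, Scn3a measured 11.4, 9.17 and 0.972 CPM at T0 and 108 and 35.4 CPM at T3. Scn8a measured 20.2, 20.1 and 5.35 CPM at T0 and 224 and 83.9 CPM at T3. Their adjusted p values were 0.0933 and 0.0508, and 0.0329 and 0.0231 without T0 replicate 3, which was the lowest library for both.

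Axon guidance and neurite adhesion genes numbered 47 tested, with 21 above T0, 2 below and 9 passing, all higher (median 0.31, or 0.55 with 4 lower and 17 higher calls without T0 replicate 3). Cntn1, a neurite contactin, reached the highest level of the list and rose from 131, 139 and 52.6 to 2152 and 683 CPM (log2 fold change 3.72 ± 0.62 SE, adjusted p = 0.0355). Nfasc, neurofascin, rose from 0.522, 0.345 and 0.139 to 141 and 111 CPM (log2 fold change 8.53 ± 0.39 SE, adjusted p = 0.00552) and was also above T2 at 8.74 to 12.3 CPM (log2 difference from T2 3.53, adjusted p = 6.21e-05). Of the netrin receptor genes, Unc5a rose from 1.49, 1.17 and 1.46 to 13.4 and 9.06 CPM (log2 fold change 3.02 ± 0.33 SE, adjusted p = 0.0184). Unc5d rose from 0.522, 0.62 and 0.486 to 10.6 and 5.28 CPM (log2 fold change 3.85 ± 0.45 SE, adjusted p = 0.0203). The plexin gene Plxna1 rose from 71.3, 67.5 and 71.9 to 157 and 136 CPM (log2 fold change 1.06 ± 0.14 SE, adjusted p = 0.0242). Plxna4 had 0, 2 and 0 counts at T0 and 65 and 23 counts at T3 (87.7 times the pooled T0 level, interval 23.6 to 735). The 3 ephrin receptor genes that passed were Epha5, Epha7 and Ephb1, of which Ephb1 rose from 2.53, 2.83 and 2.92 to 31.3 and 20.8 CPM (log2 fold change 3.24 ± 0.28 SE, adjusted p = 0.0136) and was below T2 (log2 difference from T2 -2.43, adjusted p = 0.0117).

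Genes of second messengers and G protein signalling counted 10 rises and 0 falls among 53 tested. No other list had as many rises, but lists differ in size, and 9 of 22 glutamate receptor genes rose. Over all genes tested the share of rises was 3.31%. Of the 53, 34 lay above T0 and 5 below (median 0.75, or 0.73 with 2 lower and 22 higher calls without T0 replicate 3). Of the adenylyl cyclase genes, Adcy1 rose from 9.99, 9.24 and 9.03 to 111 and 97.3 CPM (log2 fold change 3.47 ± 0.17 SE, adjusted p = 0.00552). Adcy5 rose from 2.91, 3.72 and 1.46 to 57.9 and 53.5 CPM (log2 fold change 4.36 ± 0.38 SE, adjusted p = 0.0136). Adcy1 was above T2 at 40.9 to 67.9 CPM (log2 difference from T2 1.07, adjusted p = 0.0487). Of the phosphodiesterase genes, which degrade cyclic nucleotides, Pde2a rose from 39.6, 40.6 and 23.96 to 154 and 189 CPM (log2 fold change 2.31 ± 0.27 SE, adjusted p = 0.0203). Pde9a rose from 0.149, 0.0689 and 0.417 to 88.8 and 21.999 CPM (log2 fold change 7.96 ± 0.86 SE, adjusted p = 0.0177). The ryanodine receptor genes, for calcium release from internal stores, included Ryr3, which rose from 8.64, 7.51 and 5.56 to 161 and 55.5 CPM (log2 fold change 3.90 ± 0.48 SE, adjusted p = 0.0204). Ryr2 had 2, 1 and 1 counts at T0 and 162 and 57 counts at T3 (109 times the pooled T0 level, interval 41.996 to 404). The protein kinase C gene Prkca rose from 80.3, 83.1 and 47.4 to 179.8 and 181 CPM (log2 fold change 1.36 ± 0.26 SE, adjusted p = 0.0484). Of the G protein subunit genes, Gnao1 rose from 28.9, 29.5 and 32.8 to 104 and 59.4 CPM (log2 fold change 1.42 ± 0.26 SE, adjusted p = 0.0427). Gnal rose from 3.50, 4.62 and 3.61 to 24.9 and 12.9 CPM (log2 fold change 2.27 ± 0.35 SE, adjusted p = 0.032). Prkar1b, a regulatory subunit of protein kinase A, rose from 0.224, 0.276 and 0.208 to 1.75 and 1.51 CPM (log2 fold change 2.74 ± 0.47 SE, adjusted p = 0.038).

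Levels of different genes can be set side by side per unit of length, in the FPKM values that the authors deposited. Olig1, an oligodendrocyte lineage factor, stood at 1106 and 1224 FPKM in the 2 T3 libraries, and Slc1a3, a glutamate transporter of astrocytes and radial glia, at 133 and 114. Cntn1 reached 291 and 75.5 FPKM, Dcx 45.99 and 19.2 FPKM, Gad1 22.7 and 7.70, and Syp 7.93 and 5.04. In both T3 libraries Olig1 was the highest of these genes and the order ended with Dcx, Gad1 and Syp, whereas Slc1a3 and Cntn1 exchanged places.

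Astrocyte markers moved both ways. Of 31 tested, 11 lay above T0 and 5 below, and 2 passed, both higher (median 0.26, or -0.03 with 10 lower and 6 higher calls without T0 replicate 3). Clu, a secreted chaperone, rose from 0.522, 0.345 and 0.278 to 6.76 and 4.21 CPM (log2 fold change 3.82 ± 0.46 SE, adjusted p = 0.0203). The zinc transporter gene Slc39a12 rose from 0.596, 0.758 and 0.278 to 20.4 and 13.9 CPM (log2 fold change 4.96 ± 0.45 SE, adjusted p = 0.0136). Gfap, the astrocyte intermediate filament, overlapped at 146, 148 and 0.486 CPM at T0 and 33.4 and 23.9 CPM at T3, with T0 replicate 3 the lowest library. It lay below T0 replicates 1 and 2 when that library was left out (log2 fold change -2.35, adjusted p = 0.00697). It was below T2 as well, at 72.3 to 199 CPM (log2 difference from T2 -2.12, adjusted p = 0.0487). Slc1a2 and Slc1a3, the glutamate transporter genes, measured 315, 327 and 31.6 CPM at T0 and 734 and 376 CPM at T3 and 1323, 1366 and 682 CPM at T0 and 696 and 744 CPM at T3. The summed astrocyte level was 11160.0, 11145 and 6169.9 CPM at T0 and 9280.2 and 7941 at T3.

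Oligodendrocyte lineage markers had a median of 0.86, and 14 of 23 tested lay above T0, 2 below. None passed the edgeR test in either direction, 2 lower and 8 higher had an unadjusted p under 0.05, DESeq2 called 1 lower and 5 higher, and without T0 replicate 3 edgeR called 2 and 8. Gpr17, a receptor of committed precursors, measured 102, 102 and 0.903 CPM at T0 and 1355 and 272 CPM at T3. Lhfpl3 measured 13.8, 15.4 and 0.208 CPM at T0 and 301 and 149 CPM at T3, and the precursor receptor gene Pdgfra 29.9, 26.9 and 3.61 CPM at T0 and 228 and 67.6 CPM at T3. Each was lowest in T0 replicate 3 and highest in T3 replicate 1. Sox10, the lineage factor gene, measured 3.35, 2.62 and 0.694 CPM at T0 and 0.334 and 0.108 CPM at T3. The myelin gene Mbp measured 0.82, 1.03 and 0.0694 CPM at T0 and 0.251 and 0.539 CPM at T3. Of the mature myelin genes below the count filter, Mag, Mobp and Ermn had no counts, Mog had 3, 8 and 0 counts at T0 and 23 and 3 counts at T3 and Opalin had 0, 0 and 0 counts at T0 and 1 and 11 counts at T3. The summed level of the list was 5421, 5213 and 4710.4 CPM at T0 and 9462 and 8422 at T3. That of the neuronal cytoskeleton list was 2934, 2893 and 1979.5 CPM and 6404 and 4139 CPM, so both sums put the 5 libraries in the same order. The part that glial cells in the cultures have in the neuronal results was not tested.

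Markers of cells that the cultures should not hold were near 0. Of 24 markers of microglia, endothelium and mesenchyme only 3 (Kdr, Tek and Col1a1) had enough counts to be tested, and the tested members summed to 2.09 and 2.91 CPM at T3. None of these 3 passed the edgeR test, had an unadjusted p under 0.05 or was called by DESeq2.

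**Figure D4:**
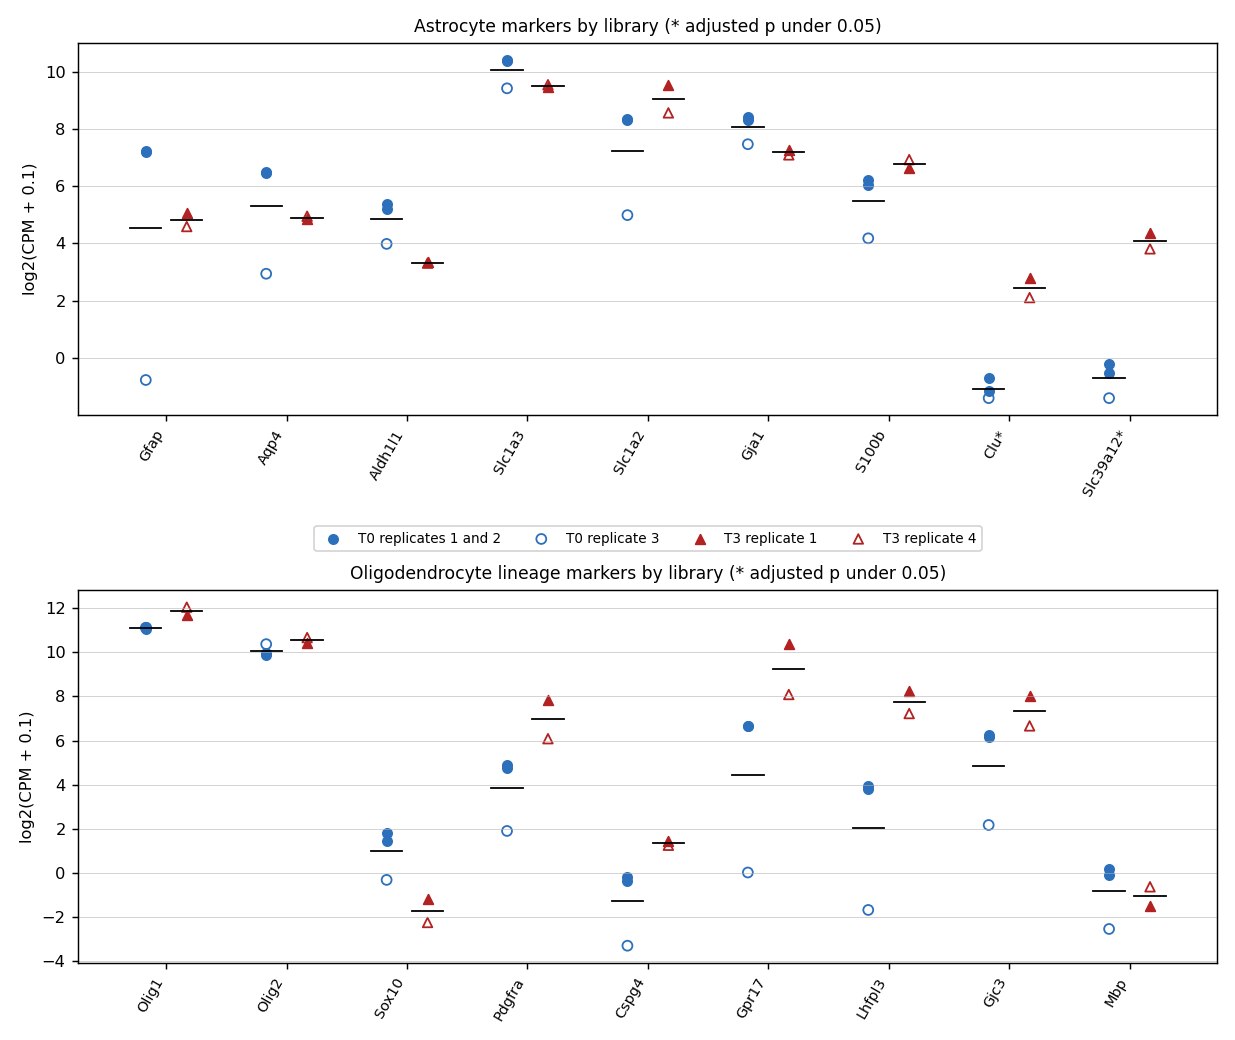
Level by library, as log2(CPM + 0.1), of astrocyte markers (top) and oligodendrocyte lineage markers (bottom), with circles for T0 (replicate 3 open), triangles for T3 (replicate 4 open), bars for group means and an asterisk for an adjusted p under 0.05. T0 replicate 3 lies far below the other T0 libraries for Gfap, Gpr17 and Pdgfra, while Olig1 and Olig2 are high in every library.

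The list of glycolysis and hypoxia response genes held the most called falls. Of 28 tested, 20 lay below T0 and 3 above, and 8 passed as lower and 1 as higher (median -1.06, or -1.19 with 15 lower and 1 higher calls without T0 replicate 3). The glucose transporter gene Slc2a1 fell from 78.4, 67.6 and 69.2 to 19.6 and 21.8 CPM (log2 fold change -1.79 ± 0.17 SE, adjusted p = 0.0147). Hk2, the hexokinase that traps glucose, fell from 84.95, 82.2 and 115 to 25.4 and 29.8 CPM (log2 fold change -1.77 ± 0.22 SE, adjusted p = 0.0209). Further along the pathway, Pfkl fell from 258, 249 and 221 to 101 and 69.4 CPM (log2 fold change -1.51 ± 0.22 SE, adjusted p = 0.0277). Tpi1 fell from 589, 608 and 593 to 204 and 226 CPM (log2 fold change -1.47 ± 0.16 SE, adjusted p = 0.0177), and Pgk1 from 56.2, 59.8 and 49.997 to 23.5 and 29.98 CPM (log2 fold change -1.05 ± 0.19 SE, adjusted p = 0.0439). The list summed to 5197, 5119 and 5094 CPM at T0 and 2557 and 2872 at T3. Single genes were less even, with T0 replicate 3 the highest T0 library for Hk2 and a gap between the T3 libraries for Pfkl. For Ldha, Pdk1 and Vegfa, given below, T0 replicate 3 lay far from the other T0 libraries.

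At the exit of glycolysis the 2 lactate dehydrogenase subunits differed. Ldha measured 663, 692 and 1033 CPM at T0 and 218 and 359 CPM at T3 (adjusted p = 0.0611, and 0.0337 without T0 replicate 3). Ldhb rose from 91.1, 94.02 and 57.8 to 188 and 187 CPM (log2 fold change 1.21 ± 0.24 SE, adjusted p = 0.0499). Pdk1, a kinase that inhibits pyruvate dehydrogenase, fell from 137, 141 and 67.7 to 31.98 and 29.4 CPM (log2 fold change -1.91 ± 0.36 SE, adjusted p = 0.0461). The collagen hydroxylase gene P4ha1 fell from 137, 120.0 and 112 to 62.2 and 55.2 CPM (log2 fold change -1.07 ± 0.17 SE, adjusted p = 0.0322). The hypoxia target Vegfa measured 267, 252 and 49.02 CPM at T0 and 35.2 and 27.7 CPM at T3 (adjusted p = 0.0998, and 0.00655 without T0 replicate 3). Aldoa, the aldolase gene, also fell (log2 fold change -1.21 ± 0.19 SE, adjusted p = 0.0328).

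Ucp2, a mitochondrial carrier protein of the uncoupling family, had the largest fall among genes whose mean level was at least 1 on the log2 CPM scale, from 21.8, 18.1 and 6.04 to 0.251 and 0.431 CPM (log2 fold change -5.48 ± 0.81 SE, adjusted p = 0.029). In its list of 28 genes, 10 lay below T0, 7 above, and 2 fell and 1 rose (median -0.11, or -0.04 with 8 lower and 1 higher calls without T0 replicate 3). The other fall was in Acadl, a fatty acid oxidation enzyme, from 381, 372 and 321 to 143 and 185 CPM (log2 fold change -1.13 ± 0.19 SE, adjusted p = 0.0377). The rise was in Ckmt1, mitochondrial creatine kinase, with 0, 3 and 1 counts at T0 and 65 and 14 counts at T3 (39.3 times the pooled T0 level, interval 14.8 to 148). The brain creatine kinase gene Ckb overlapped at 2829, 2365 and 4668 CPM at T0 and 3090.0 and 3798 CPM at T3.

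Of 32 cholesterol and fatty acid synthesis genes, 15 lay below T0 and 0 above (median -0.56, or -0.19 with 4 lower and 1 higher calls without T0 replicate 3), and 1 passed, the sterol reductase gene Tm7sf2, from 24.2, 26.4 and 24.1 to 9.02 and 12.7 CPM (log2 fold change -1.20 ± 0.23 SE, adjusted p = 0.0488). The sterol element letters TCACNCCAC were in 0 of the 27 windows of this list and in 1.24% of all windows. For so rare a word 27 windows are too few to tell this list from other genes.

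**Figure D5:**
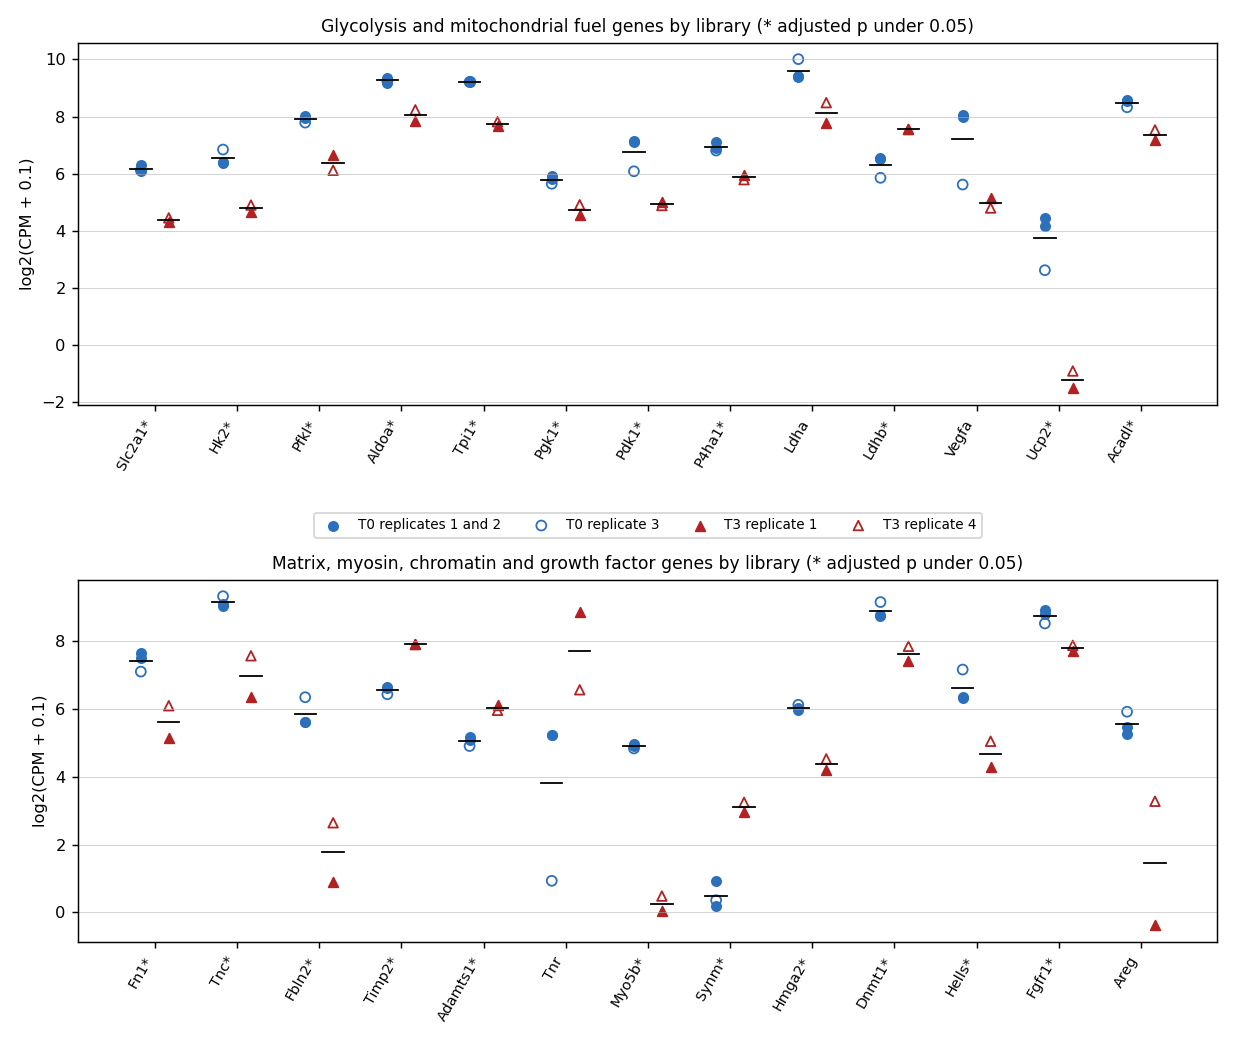
Level by library, as log2(CPM + 0.1), of glycolysis and mitochondrial fuel genes (top) and of matrix, myosin, chromatin and growth factor genes (bottom), with circles for T0 (replicate 3 open), triangles for T3 (replicate 4 open), bars for group means and an asterisk for an adjusted p under 0.05. Ldhb is the one glycolysis gene drawn with triangles above circles, and Ucp2 and Myo5b show the widest gaps between groups.

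Of 52 extracellular matrix and integrin genes, 15 lay below T0 (28.8%) and 12 above (23.1%), near the 24.8% and 25.4% of all genes tested. The test gave 3 falls and 2 rises (median -0.14, or -0.26 with 13 lower and 9 higher calls without T0 replicate 3). Besides Tnc, the falls were in Fbln2, fibulin 2, from 49.3, 49.1 and 81.4 to 1.75 and 6.15 CPM (log2 fold change -3.95 ± 0.60 SE, adjusted p = 0.0304), and in Fn1, fibronectin, from 199.7, 183 and 138 to 35.2 and 68.4 CPM (log2 fold change -1.75 ± 0.34 SE, adjusted p = 0.0488). The rises were in Timp2, a metalloprotease inhibitor, from 98.5, 100.1 and 86.5 to 242 and 239.5 CPM (log2 fold change 1.34 ± 0.15 SE, adjusted p = 0.0179), and the protease gene Adamts1, from 36.4, 34.05 and 29.9 to 69.7 and 62.2 CPM (log2 fold change 0.98 ± 0.17 SE, adjusted p = 0.038). Tnr, tenascin-R, measured 37.5, 37.8 and 1.81 CPM at T0 and 466 and 94.8 CPM at T3 without passing (adjusted p = 0.137), so the tenascin genes Tnc and Tnr lay on opposite sides.

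Among 27 myosin and intermediate filament genes, Myo5b, a motor of recycling endosomes, fell from 31.2, 29.8 and 28.5 to 0.919 and 1.29 CPM (log2 fold change -4.76 ± 0.28 SE, adjusted p = 0.00861). Synm, the intermediate filament synemin, rose from 1.79, 1.03 and 1.18 to 7.68 and 9.38 CPM (log2 fold change 2.67 ± 0.37 SE, adjusted p = 0.0254). No other member passed (median -0.16, or -0.13 with 6 lower and 2 higher calls without T0 replicate 3, and with all libraries 9 below T0 and 4 above). Vim, vimentin, measured 3756, 3008 and 3059 CPM at T0 and 1998 and 2310.0 CPM at T3 (adjusted p = 0.132).

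Notch, BMP and Wnt signalling genes gave 3 rises and no falls among 47 tested (median 0.15, or 0.08 with 9 lower and 11 higher calls without T0 replicate 3). Among the 47, 14 lay above T0 (29.8%) and 11 below (23.4%), near the 25.4% and 24.8% of all genes tested. Of the Notch ligand genes, Dll3 rose from 9.39, 10.8 and 6.39 to 37.99 and 24.6 CPM (log2 fold change 1.82 ± 0.32 SE, adjusted p = 0.0391). Dll4 rose from 3.80, 2.34 and 1.81 to 42.6 and 44.4 CPM (log2 fold change 4.04 ± 0.34 SE, adjusted p = 0.0136), and Dll3 was above T2 (log2 difference from T2 1.56, adjusted p = 0.0437). Nog, the BMP antagonist noggin, had 1, 1 and 0 counts at T0 and 39 and 8 counts at T3 (46.8 times the pooled T0 level, interval 12.3 to 398). Notch1 overlapped at 713, 733 and 304 CPM at T0 and 576 and 519 CPM at T3, and the BMP target gene Id3 measured 330.1, 301 and 236 CPM at T0 and 89.02 and 152 CPM at T3 (adjusted p = 0.0657, and 0.03 without T0 replicate 3).

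Chromatin genes included 3 falls and 0 rises among 45 (18 below T0, 6 above, median -0.14, or -0.16 with 6 lower and 2 higher calls without T0 replicate 3). The maintenance methyltransferase gene Dnmt1 fell from 425, 437 and 571 to 170.1 and 231 CPM (log2 fold change -1.25 ± 0.23 SE, adjusted p = 0.0443). The remodeller gene Hells fell from 80.6, 81.6 and 143 to 19.6 and 32.999 CPM (log2 fold change -1.96 ± 0.38 SE, adjusted p = 0.0488). The corepressor gene Rcor2 fell from 152, 147 and 135 to 84.9 and 84.3 CPM (log2 fold change -0.77 ± 0.14 SE, adjusted p = 0.0449). The SWI/SNF ATPase gene Smarca2 measured 70.5, 80.9 and 31.5 CPM at T0 and 242 and 121 CPM at T3 (adjusted p = 0.103), while Smarca4 measured 448, 449 and 466 CPM at T0 and 444 and 414 CPM at T3 (adjusted p = 0.758).

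Of 37 ribosome biogenesis and Myc genes, 19 lay below T0 and 4 above, and 1 fell, the RNA polymerase I subunit gene Polr1c, from 102, 106 and 112 to 53.4 and 61.9 CPM (log2 fold change -0.89 ± 0.15 SE, adjusted p = 0.0394; list median -0.59, or -0.17 with 7 lower and 1 higher calls without T0 replicate 3). Myc overlapped at 241, 229.7 and 445 CPM at T0 and 191 and 269 CPM at T3 and was above T2 (log2 difference from T2 0.79, adjusted p = 0.0492). In the list of ATF4 targets and serine synthesis 2 of 29 rose and 0 fell (median -0.17, or 0.02 with 5 lower and 10 higher calls without T0 replicate 3, and with all libraries 6 below T0 and 7 above). The stress gene Sesn2 rose from 37.7, 40.3 and 32.4 to 104 and 114 CPM (log2 fold change 1.56 ± 0.16 SE, adjusted p = 0.0174). Chac1, which degrades glutathione, rose from 0.373, 0.138 and 0.208 to 3.01 and 2.37 CPM (log2 fold change 3.45 ± 0.53 SE, adjusted p = 0.0307). Interferon, chemokine and stress genes had 1 rise and 0 falls among 25, the peptide transporter gene Tap1 from 0.149, 0.276 and 0.278 to 1.59 and 3.56 CPM (log2 fold change 3.38 ± 0.59 SE, adjusted p = 0.0394; list median 0.31, or 0.19 with 0 lower and 5 higher calls without T0 replicate 3, and with all libraries 3 below T0 and 8 above).

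No lysosome gene passed the edgeR test among 36, with 1 lower and 7 higher at an unadjusted p under 0.05 and 0 and 3 called by DESeq2. Both T3 libraries were above T0 for 16 of them and below for 2 (median 0.13, or 0.08 with 2 lower and 4 higher calls without T0 replicate 3). For the cleavage and polyadenylation factors, which form the 3′ ends of messages, edgeR called 0 of 30, 2 lower and 2 higher had an unadjusted p under 0.05, and DESeq2 called 1 lower and 0 higher (median -0.30, or -0.14 with 0 lower and 0 higher calls without T0 replicate 3, and with all libraries 15 below T0 and 3 above). Of 7 genes with X-linked and Y-linked copies edgeR and DESeq2 called 0, and 0 had an unadjusted p under 0.05 (median -0.11, or -0.15 with 0 lower and 0 higher calls without T0 replicate 3, and with all libraries 1 below T0 and 0 above). The Y-linked gene Eif2s3y was counted in every library, at 96.4, 89.95 and 70.8 CPM at T0 and 108 and 87.2 CPM at T3. Other Y-linked genes of the list were at or near 0. Ddx3y had 0, 0 and 0 counts at T0 and 2 and 0 counts at T3, and Kdm5d had no counts in these libraries.

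Under the same minimum of 1 for the mean level (log2 CPM), the 15 largest falls were led by Ucp2 (chr7:107641846-107650529, plus strand, in NCBIM37, the build also called mm9, with GENCODE vM1), Myo5b, Fbln2 (chr6:91162449-91222534, plus strand) and Gcnt4. Gcnt4, which builds branched O-glycans, fell from 30.03, 30.2 and 26.4 to 1.34 and 3.77 CPM (log2 fold change -3.52 ± 0.46 SE, adjusted p = 0.022). Cd109 (chr9:78463353-78564060, plus strand), a surface protein that binds TGF-beta, fell from 579, 566 and 495 to 68.1 and 122 CPM (log2 fold change -2.53 ± 0.30 SE, adjusted p = 0.0203) from a much higher level. Efna1, the ligand ephrin-A1, fell from 11.998, 10.1 and 14.9 to 1.59 and 2.59 CPM (log2 fold change -2.57 ± 0.37 SE, adjusted p = 0.0278). Gchfr, which feeds back on tetrahydrobiopterin synthesis, fell from 5.89, 5.17 and 8.33 to 0.835 and 1.40 CPM (log2 fold change -2.54 ± 0.45 SE, adjusted p = 0.04). The Rab regulator gene Tbc1d8b fell from 44.4, 47.8 and 51.2 to 8.52 and 10.03 CPM (log2 fold change -2.37 ± 0.19 SE, adjusted p = 0.0136). Rad51l1, a DNA repair gene, fell from 8.94, 8.62 and 8.12 to 1.75 and 2.26 CPM (log2 fold change -2.09 ± 0.31 SE, adjusted p = 0.029). T0 replicate 3 was the highest T0 library in Fbln2, Efna1, Gchfr and Tbc1d8b and the lowest in Ucp2, Myo5b, Gcnt4, Cd109 and Rad51l1. The remaining falls were Kcnc4, described above, Lrrc46 from 13.2, 13.6 and 23.8 to 3.01 and 4.64 CPM (adjusted p = 0.047) and 4 with uncertain counts. The exons of Synj2 (with Serac1), Cntd1 (with Becn1 and Ccdc56) and 5730590G19Rik (with Kif7) overlap a gene on the other strand, and Rpl17 has near-identical copies elsewhere in the genome, so reads of these 4 genes may not be theirs alone. Their log2 fold changes were -2.30, -2.23, -2.11 and -2.51.

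The 15 largest rises all started from a T0 level near 0. Shisa9 (chr16:11984674-12267896, plus strand), Nrxn3 (chr12:89961320-91573375, plus strand), Nfasc (chr1:134461268-134638374, minus strand), Kcnma1 (chr14:24117983-24622526, minus strand), Gria4 (chr9:4417899-4796234, minus strand), Pde9a (chr17:31523179-31613255, plus strand) and Rph3a (chr5:121390511-121459527, minus strand) are synaptic, channel or signalling genes described above. Tmem132b, a neural membrane protein gene, had 1, 1 and 1 counts at T0 and 1118 and 267 counts at T3 (919.7 times the pooled T0 level, interval 314 to 4465). The ubiquitin ligase gene Rnf43, which removes Wnt receptors, had 1, 0 and 0 counts at T0 and 167 and 72 counts at T3 (476 times the pooled T0 level, interval 84.6 to 18883). Slc8a1, the sodium/calcium exchanger, had 1, 1 and 0 counts at T0 and 282 and 90 counts at T3 (371 times the pooled T0 level, interval 102 to 3071), though its exons overlap Gm11096 on the other strand. T3 replicate 1 was the higher culture in counts in each of these. Csmd1, a complement-related membrane gene, had 0, 1 and 0 counts at T0 and 207 and 37 counts at T3 (486 times the pooled T0 level, interval 86.4 to 19276; log2 difference from T2 2.89, adjusted p = 0.0458). Phactr3, an actin and phosphatase regulator, had 0, 2 and 0 counts at T0 and 259 and 73 counts at T3 (331 times the pooled T0 level, interval 90.8 to 2742). Gsx1, a homeobox gene of ventral forebrain progenitors, had 0, 1 and 0 counts at T0 and 134 and 51 counts at T3 (369 times the pooled T0 level, interval 65.3 to 14634; log2 difference from T2 2.30, adjusted p = 0.0474). Ly6h had 1, 0 and 0 counts at T0 and 94 and 83 counts at T3 (353 times the pooled T0 level, interval 62.5 to 14005). The mucin-like gene Glycam1 had 1, 0 and 1 counts at T0 and 177 and 123 counts at T3 (299 times the pooled T0 level, interval 82.003 to 2479). Only genes with both T3 libraries above all T0 libraries could enter this list, so the agreement of both T3 cultures was set by that rule.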

How the data were processed

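Polyadenylated RNA was sequenced from 12 ANS libraries. The authors aligned the reads to mm9 and deposited, per library, HTSeq read counts per gene, and they deposited an FPKM table with 1 column per library. The submitters' processing notes name CASAVA 1.8, TopHat2 2.0.6, Bowtie 0.12.7.0, HTSeq 0.6.0 and DESeq2 1.0.0, and the strand setting of the counting is not given in the sources used here. The counting leaves out reads that align more than once, which made up 28.2% to 39.0% of alignments in the 5 libraries compared. The last 5 entries of each count table name no gene and stayed out of library sizes and tests, and reads outside genes were 13.3% to 23.1% of unique alignments.

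Counts were tested with edgeR 4.0.16 in R 4.3.3 (filterByExpr, TMM, quasi-likelihood F test, Benjamini-Hochberg adjustment) on the T0 and T3 libraries alone, and separately on T2 and T3. SE was taken as the absolute log2 fold change over the square root of F. Where every T0 library held 3 counts or fewer, no fitted fold is given, and the text has the ratio of pooled CPM or, with no T0 counts, mean T3 CPM over the mean CPM of 3 counts at T0 as a lower bound. FPKM served only to set genes side by side. The alternatives were RLE scaling, no filter, a minimum of 10 counts in every library, DESeq2 1.42.0, one fit of all 12 libraries, each library left out in turn and, added later, one fit without T0 replicate 3. The code of the edgeR test was tested on simulated data. Promoter sequences are RefSeq's (GRCm38.p6), and gene positions come from GENCODE vM1 (NCBIM37).

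The comparison and the gene lists were chosen with earlier results of these data known. Any member of a list may be named, as may the 15 largest falls and the 15 largest rises that passed the test, had no overlap between groups and reached 1 in mean log2 CPM. Other genes are said to be chosen after their values were seen. Lists are given by their counts, with values for a selection of members, and results for some members are not reported here.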

Additional observations from a re-analysis of the deposited data

How the results depend on the processing

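The counts of genes with both T3 libraries below, or both above, all T0 libraries ranged from 2790 to 4685 and from 2845 to 4765 under RLE scaling, other filters and single libraries left out, and leaving out a library loosens that condition. Without a filter on low counts, 454 genes were lower and 711 higher at T3 than at T0, and 296 and 423 against T2. Requiring 10 counts in every library gave 93 and 164 against T0, and 40 higher against T2. DESeq2 gave 939 and 1084 against T0 and 330 and 430 against T2, and one edgeR fit of all 12 libraries gave 1865 and 2000, and 24 and 18. Leaving out 1 library at a time gave 0 to 1067 lower and 0 to 1250 higher genes against T0, and 0 to 515 and 1 to 832 against T2. No gene called in the full set was called in all 5 of these fits against T0, and 1 lower and 11 higher genes were called in 3. One fit of all libraries other than T0 replicate 3, chosen after seeing the data, gave 2140 and 2308. The cause of these differences was not tested beyond the smaller number of libraries or genes in some fits.

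Of the fold changes of named genes under these alternatives, 1273 kept their direction and side of the threshold, 511 kept the direction and lost the call, 176 gained one and 0 reversed. Of the counts of called list members, 300 stayed within 1.5 times and 360 did not. Over all genes tested the median fold change (log2) was -0.01 with TMM and with RLE scaling and 0.08 with DESeq2.

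T0 and T3 share only replicate number 1, and no paired analysis was possible because a block needs at least 2 shared numbers. T2 and T3 share numbers 1 and 4, and the block on those 4 libraries left 8 lower and 5 higher genes. No source says that a number marks a shared culture, and with 2 pairs the pairing was not settled from the data.

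With 2 T3 cultures the spread at T3 rests on 1 pair of libraries, and calls draw on a spread shared across genes. The low depth of T3 replicate 4 (8910724 counts) puts 3 counts at 0.324 CPM.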

Other observations

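Named here after their values were seen, 4 genes act in homologous recombination or the Fanconi anemia pathway of DNA repair. Brca1 fell from 124, 126 and 161 to 32.9 and 58.1 CPM (log2 fold change -1.59 ± 0.29 SE, adjusted p = 0.0436), Brca2 from 63.5, 64.5 and 83.9 to 27.6 and 31.3 CPM (log2 fold change -1.26 ± 0.20 SE, adjusted p = 0.0332), Fancd2 from 111, 108 and 115 to 23.5 and 35.4 CPM (log2 fold change -1.92 ± 0.22 SE, adjusted p = 0.0203) and Rad54l from 46.7, 51.1 and 57.2 to 13.4 and 17.8 CPM (log2 fold change -1.73 ± 0.21 SE, adjusted p = 0.0205). The microcephaly genes Aspm and Wdr62, which act at the spindle poles of dividing progenitors, fell from 223, 214 and 231 to 59.5 and 98.3 CPM (log2 fold change -1.50 ± 0.25 SE, adjusted p = 0.0351) and from 85.7, 79.1 and 81.7 to 21.4 and 34.4 CPM (log2 fold change -1.56 ± 0.24 SE, adjusted p = 0.032).

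Further genes named after their values were seen act in dense-core secretory granules or in neural adhesion, and no count over either function was made. Chga and Chgb, the granins that pack hormone and peptide granules, rose from 1.27, 0.482 and 0.903 to 20.4 and 16.1 CPM (log2 fold change 4.36 ± 0.43 SE, adjusted p = 0.0147) and from 0.745, 0.276 and 0.208 to 47.8 and 14.1 CPM (log2 fold change 6.23 ± 0.74 SE, adjusted p = 0.0203). The granin gene Scg2 had 0, 3 and 0 counts at T0 and 241 and 61 counts at T3, 201 times the pooled T0 level, interval 67.97 to 978, and the peptide-processing convertase gene Pcsk2 had 2, 0 and 1 counts at T0 and 325 and 68 counts at T3, 261 times the pooled T0 level, interval 88.6 to 1271. The cell adhesion gene Dscam rose from 4.02, 5.10 and 7.22 to 130.1 and 46.2 CPM (log2 fold change 4.01 ± 0.50 SE, adjusted p = 0.0205), and Ctnna2, the neural alpha-catenin, rose from 0.745, 0.827 and 0.417 to 92.5 and 36.3 CPM (log2 fold change 6.59 ± 0.53 SE, adjusted p = 0.0136). St8sia2, which adds polysialic acid to NCAM, rose from 9.76, 11.3 and 5.83 to 73.2 and 80.02 CPM (log2 fold change 3.09 ± 0.30 SE, adjusted p = 0.0146). T3 replicate 1 was the higher T3 culture in each of these genes except St8sia2.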
